A study of Mus musculus with 117 samples.

Results

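The regions described here are stretches of the mouse genome that carried chromatin state 2 in the hepatocytes of nearly every strain examined. A member is a 200-bp bin of an autosome assigned to state 2 in at least 7 of 9 inbred strains, and adjacent bins were joined. The rule gave 38802 regions made of 141833 bins, which cover 28.4 Mb, or 1.15% of the 12313718 autosomal bins. The study profiled the histone marks H3K4me1, H3K4me3, H3K27ac and H3K27me3 by chromatin immunoprecipitation and sequencing (ChIP-seq) in liver hepatocytes of female mice 12 weeks old. Its series title relates histone configurations to gene expression across strains. The labels list 117 libraries, 13 per strain: 4 marks in each of 3 mice plus 1 input, a library of chromatin taken before any antibody step. They are C57BL/6J, DBA/2J, 129S1/SvImJ, NZO/HlLtJ, NOD/ShiLtJ, A/J, PWK/PhJ, WSB/EiJ and CAST/EiJ. Each is an inbred strain with no transgene or treatment named in the labels, and the groups differ by strain alone. The deposited files hold 1 segmentation per strain, with every bin assigned to 1 of 14 states, so no values of single mice enter and errors below are the spread between strains.

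A chromatin state is a recurring combination of histone marks found at many places in a genome. Active promoters of animal genes usually carry H3K4me3, enhancers carry H3K4me1 with or without H3K27ac, and genes silenced by Polycomb proteins carry H3K27me3. In liver, many enhancers lie inside or near genes of metabolism and of the transcription factors that keep hepatocyte identity. The sources used here do not say which marks make up state 2, and its number is used only as a name. States 1, 3, 4, 6 and 14 enter as neighbours or replacements of state 2 and are likewise named by number.

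Sequences of the regions themselves are not printed here, so the members are shown through the promoters that fall inside them. A start of transcription inside a region was uncommon: 81 of 16457 autosomal protein-coding genes with a listed start had such a start (0.492%), at 83 starts in all. Among the genes named below for the most or the largest share of region bins, Orm2, Rxra and Gm33049 had such a start, and their promoters are given from 250 bases before to 50 bases after it (RefSeq, GRCm38.p6, plus strand for all 3). Capitals mark a match to C/EBP (TTGCNNAA), a TATA box (TATAAA) or a CCAAT box (CCAAT) on either strand. The promoter of Orm2, an acute-phase plasma protein, lies at chr4:63362199-63362498. The Rxra promoter, at chr2:27709042-27709341, belongs to a start inside the gene, 32847 bp from its outer end, and held no match to any of the 6 motifs searched. The promoter of Gm33049, a predicted gene, lies at chr15:88854191-88854490.
Orm2: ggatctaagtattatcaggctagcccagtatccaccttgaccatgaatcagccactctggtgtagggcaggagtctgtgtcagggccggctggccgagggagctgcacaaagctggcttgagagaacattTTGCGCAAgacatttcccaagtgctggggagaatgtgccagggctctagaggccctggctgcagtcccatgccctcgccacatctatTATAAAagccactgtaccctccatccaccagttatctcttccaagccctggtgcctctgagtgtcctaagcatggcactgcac
Rxra: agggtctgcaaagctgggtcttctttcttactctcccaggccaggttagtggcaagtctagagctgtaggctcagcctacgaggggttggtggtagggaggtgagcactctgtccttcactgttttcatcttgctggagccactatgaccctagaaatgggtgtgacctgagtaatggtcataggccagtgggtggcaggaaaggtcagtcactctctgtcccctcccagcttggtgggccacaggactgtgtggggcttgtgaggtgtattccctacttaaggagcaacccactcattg
Gm33049: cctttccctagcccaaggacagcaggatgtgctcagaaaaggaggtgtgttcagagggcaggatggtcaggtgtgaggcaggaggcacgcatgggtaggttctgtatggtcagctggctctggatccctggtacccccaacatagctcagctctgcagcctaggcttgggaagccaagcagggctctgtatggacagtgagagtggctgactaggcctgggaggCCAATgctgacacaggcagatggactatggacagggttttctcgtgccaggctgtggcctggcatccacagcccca

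At the Orm2 start, 7 strains were in state 2 and CAST/EiJ and NZO/HlLtJ were in state 1. At the internal Rxra start 8 strains were in state 2 and CAST/EiJ was in state 1, and at the Gm33049 start the exception was NOD/ShiLtJ, also in state 1. In all 3 promoters, then, each strain that was not in state 2 was in state 1.

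The sequences also show how poor in CpG these starts were. CpG observed over expected compares the count of CG pairs with the count that the base composition of the window would give, and CpG islands are the stretches where it is high. Orm2 had 0.177, Gm33049 had 0.0795 and Rxra had 0.0459. Over all 83 starts in stable state 2 the median was 0.174 (quartiles 0.0944 and 0.274), against 0.586 over all 20085 listed starts and 0.839 over the 7446 starts stable in state 3. Starts stable in state 1 had a median of 0.457, those stable in state 4 had 0.213 and those stable in state 14 had 0.164. The GC content of the state 2 starts (median 54.3%) was nearer to that of all starts (57%) than to that of the state 14 starts (46.0%).

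C/EBP matches, named for a factor family that drives many liver genes, were found in 15 of the 83 promoters (18.1%) against 10.3% of all listed promoters. Matches to the FOXA motif (TGTTTAC), named for pioneer factors of liver, were found in 6 promoters (7.23%) against 3.04%, and matches to the HNF4A motif (CAAAGT) in 11 (13.3%) against 13.5%. The GC box (GGGCGG) was found in 16 promoters (19.3%) against 47.0% of all, CCAAT in 25 (30.1%) against 38.1%, and TATAAA in 8 (9.64%) against 12.7%. Other starts with few CpG gave values on both sides of these for FOXA and the GC box, but lower values for C/EBP. Starts stable in states 4, 6 and 14 had C/EBP matches in 11.8%, 14.1% and 15.3%. FOXA matches were in 1.39%, 9.41% and 4.06% of them, and the GC box in 22.9%, 14.1% and 9.28%. A share above that of all promoters is thus not particular to state 2, although state 2 had the highest of these for C/EBP. All these shares count letters on both strands, the HNF4A motif is short, and no test was made. Of the 83 starts, 38 lay within 1 kb of the outer end of their gene and 45 lay farther inside, as for Rxra.

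Genes of microRNAs, short RNAs that repress messenger RNAs through a seed at bases 2 to 8, were also looked up, after the earlier results had been seen. Of 919 autosomal hairpins listed, 24 overlapped a region (2.61%), and 8 of their mature products are shown because they are well-studied families. Regions cover 1.15% of autosomal bins, but a hairpin can touch more than 1 bin, and no background matched for size or place was made. The count is therefore a description and no result about these families. Capitals mark the seed, and the letters are RefSeq's.
mmu-miR-29b-3p: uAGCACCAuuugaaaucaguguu
mmu-miR-29c-3p: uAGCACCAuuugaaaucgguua
mmu-miR-141-3p: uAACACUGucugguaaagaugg
mmu-miR-200c-3p: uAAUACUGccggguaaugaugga
mmu-miR-103-3p: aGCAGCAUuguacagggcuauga
mmu-miR-365-3p: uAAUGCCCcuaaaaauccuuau
mmu-miR-101b-3p: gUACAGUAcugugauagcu
mmu-miR-126a-3p: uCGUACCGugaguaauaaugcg

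Positions here are those of the mature products, and each strain count is the highest over the bins that the hairpin overlaps. The products of Mir29b-2 (chr1:195037091-195037113, plus strand) and Mir29c (chr1:195037600-195037621, plus strand) share the seed AGCACCA and come from neighbouring hairpins, both in bins with state 2 in 8 strains. The miR-29 family is known for repressing collagen messages. Mir141 (chr6:124717917-124717938, minus strand) and Mir200c (chr6:124718324-124718346, minus strand), the epithelial cluster, have different seeds, AACACUG and AAUACUG, and lay in bins with state 2 in 8 and 7 strains. A bin of the hairpin was in state 2 in all 9 strains for Mir103-1 (chr11:35782447-35782469, plus strand) and for Mir126a (chr2:26591402-26591423, plus strand), the latter best known from endothelial cells. Mir365-2 (chr11:79726467-79726488, plus strand) had 8 strains in state 2 and Mir101b (chr19:29135338-29135356, plus strand) had 7.

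The regions were short and numerous. Their median length was 600 bp, 10142 of them (26.1%) were a single bin, 90% were 1600 bp or shorter, and 127 reached 5 kb. Neighbouring regions were often close, with a median gap of 3600 bp and 26.5% of gaps at 1 kb or less. By the same rule, state 1 gave 42221 regions, state 6 gave 45100, state 4 gave 23561 and state 3 gave 10740. Per Mb, autosomes held from 11.9 regions (chromosome 3) to 22.9 (chromosome 19), whereas the X chromosome, which the rule left out, would have added 35 regions, or 0.205 per Mb. Over the 19 autosomes, regions per Mb and protein-coding genes per Mb had a Spearman rho of 0.570 and a Pearson r of 0.495, given as a description of chromosomes that share the same 9 segmentations.

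Bins with 7, 8 and 9 strains in state 2 made up 34.6%, 33.7% and 31.7% of the members. Just outside the threshold stood 50635 bins with 6 strains, and just inside it 49037 bins with 7. The strains not in state 2 were mostly in the same few states on both sides of the threshold: state 1 in 34.4% of such cases with 6 strains and 36.4% with 7, state 6 in 31.3% and 29.4%, state 4 in 24.1% and 25%, and state 14 in 7.87% and 7.35%. In 66.8% of the bins with 7 strains, both remaining strains were in one and the same other state. CAST/EiJ and PWK/PhJ together were the missing pair in 12.5% of the bins with 7 strains, followed by NOD/ShiLtJ with NZO/HlLtJ in 5.62% and A/J with NOD/ShiLtJ in 5.60%. These values follow from the states that chose the members and are a description.

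In each strain, state 2 as a whole covered a small share of the autosomes, 2.30% ± 0.281 (SD, n = 9 strains), from 1.93% in NZO/HlLtJ to 2.69% in C57BL/6J. The members held 44.8% ± 4.76 of a strain's state 2 bins. Counted over all strains, 670622 bins were in state 2 at least once, and the members were 21.1% of them.

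To measure how well state 2 recurs without using the strain that is read, bins were chosen from 8 strains (state 2 in at least 7 of them) and the state was read in the strain held out. State 2 was found in 84.6% ± 6.67 of such bins (SD, n = 9 strains), which is 31.4 to 42.1 times its share of that strain's autosomes. C57BL/6J kept state 2 in 93.9% of the bins, 129S1/SvImJ in 91.6%, DBA/2J in 89.6%, WSB/EiJ in 88.6% and A/J, the median, in 85.3%. Lower were NZO/HlLtJ with 81.1%, NOD/ShiLtJ with 79.2%, CAST/EiJ with 76.3% and PWK/PhJ with 76.1%. CAST/EiJ, PWK/PhJ and WSB/EiJ are wild-derived, which is general knowledge and not in the labels. These 3 strains averaged 80.4% ± 7.12 and the 6 laboratory strains 86.8% ± 5.87, and the groups overlapped (difference -6.42 points, exact two-sided permutation test, p = 0.179). With 84 possible splits the smallest p this design allows is 0.0119.

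The segmentations themselves differed in how finely they divided the autosomes. CAST/EiJ, PWK/PhJ and NOD/ShiLtJ, with the lowest held-out shares, had the most segments (650016, 625553 and 613235), and C57BL/6J and DBA/2J had the fewest (548884 and 548903). The 2 orders were not the same throughout. NZO/HlLtJ, with a held-out share of 81.1%, had 579965 segments, fewer than the 597009 of 129S1/SvImJ, with 91.6%. The part of segment number in the order of the strains was not tested.

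What took the place of state 2 differed from strain to strain. Of the bins that the held-out strain did not keep, 129S1/SvImJ had 74.2% in state 1, NZO/HlLtJ 55.6% and NOD/ShiLtJ 51.9%. A/J and DBA/2J instead had state 6 most often, in 53.2% and 44.7% of their lost bins. State 4 came first in C57BL/6J (47.1%), WSB/EiJ (37.0%), PWK/PhJ (36.1%) and CAST/EiJ (36.0%). PWK/PhJ and CAST/EiJ also had the largest shares in state 14, the most widespread state, at 18.2% and 10.8%, against 1.69% to 5.12% in the other strains. The plot of held-out states shows these replacements as coloured bands above the state 2 bar. The groups of replacing states were read from these values, and no test of their differences was made.

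**Figure D1:**
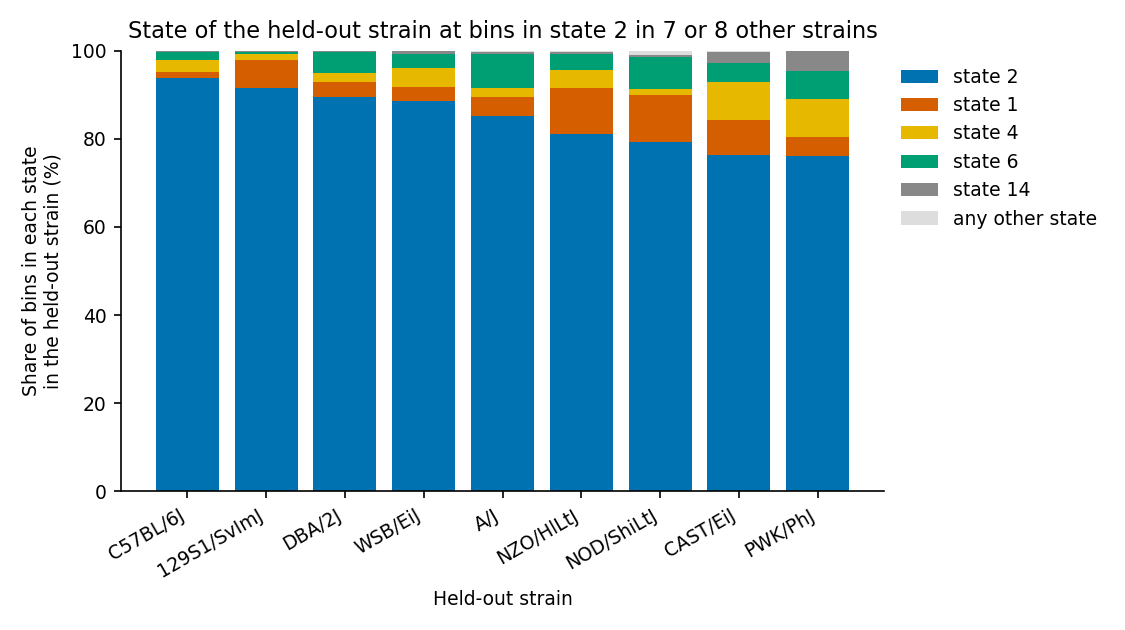
Share (%) of bins in each state in the held-out strain, over bins in state 2 in at least 7 of the other 8 strains; each bar is 1 strain and the strains are ordered by their state 2 share. State 2 fills from 93.9% of the bar in C57BL/6J to 76.1% in PWK/PhJ, and the bands above it differ in their main state.

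Whole regions as well as their borders were lost. Of the regions built from 8 strains, the held-out strain had state 2 throughout in 72.2% ± 9.92 (SD, n = 9 strains), in part of the region in 15.2% ± 4.37 and nowhere in 12.6% ± 5.83. The share wholly lost ran from 4.53% in C57BL/6J to 20.2% in CAST/EiJ. Counted per bin, state 2 was kept in 76.6% ± 9.17 of single-bin regions, 82.7% ± 7.25 of the bins of regions of 2 to 4 bins, 86.4% ± 6.62 for 5 to 9 bins and 90.02% ± 4.72 for 10 bins or more. The share of regions wholly lost was 23.4% ± 9.17, 10% ± 5.49, 3.32% ± 3.07 and 0.807% ± 0.814 in the same order. A longer region has more bins that must all be lost, which the per-bin shares avoid. The per-bin shares still mix length with agreement among strains and with the share of edge bins. In the stable regions, the mean number of strains in state 2 was 7.40 for a single bin, 8.06 for 5 to 9 bins and 8.48 at 5 kb or longer. Wholly lost regions accounted for 43.5% ± 6.70 of all lost bins.

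Within regions, bins in the middle kept state 2 more often than bins at the edge. Bins with a region bin on both sides kept state 2 in 88.9% ± 5.72 and edge bins, which include single-bin regions, in 80.7% ± 7.66. The difference was 8.17 ± 2.27 points and every strain showed it (9 of 9). A two-sided exact permutation test that flips the signs of the 9 differences gave p = 0.0039, the smallest possible, and 0.0068 after Benjamini-Hochberg adjustment over 7 tests. The bins read in different strains were chosen from overlapping sets of strains, so the 9 values are not fully independent. An edge bin also adjoins, by definition, a bin where fewer than 7 of the other 8 strains had state 2. A lower share at edges was thus likely beforehand, and the p-value is no separate evidence for an effect of position. The difference ranged from below 5 points in C57BL/6J, where the middle had 96.3% and the edge 91.7%, to above 10 points in NZO/HlLtJ, with 86.7% and 75.9%.

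State 2 recurred less than state 1 chosen in the same way. The held-out share of state 1 was 93.6% ± 3.38, and that of state 2 was lower in 9 of 9 strains, with a difference of -8.96 ± 5.46 points (exact sign-flip permutation test, adjusted p = 0.0068). This difference was uneven, from -0.121 points in C57BL/6J to -15.8 points in NOD/ShiLtJ. Against state 6, with 84.9% ± 6.47, the difference was -0.299 ± 6.09 points and its sign varied (adjusted p = 0.875, exact permutation). States 3 and 4, given for reference without a test, had held-out shares of 95.9% ± 1.93 and 83.3% ± 8.49.

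States 1 and 4 were the most frequent other states beside the stable regions. In the 1 kb beyond each edge, 303071 bins in all, state 4 took 27.0% ± 3.81 (SD, n = 9 strains), state 2 itself 25.3% ± 3.76, state 1 22.9% ± 3.26, state 14 12.3% ± 3.17 and state 6 11.2% ± 3.53. State 1 exceeded state 6 by 11.8 ± 4.80 points and state 14 by 10.6 ± 4.84 points, in 9 of 9 strains each (exact sign-flip permutation, adjusted p = 0.0068 for both). No strain was held out here: the edges were set by the same 9 strains that were then read at the same bins. The 9 values are therefore not independent of the rule or of each other, and the differences are a description. The excess over state 14 belongs to the nearest flank: with 2 kb on each side it was -2.28 points (p = 0.199, exact permutation). Bins of neighbouring regions were left out of these flank shares, and each bin was counted once. The plot of flanking states keeps them, so its shares differ from those above. It shows state 14 climbing from 2.84% in the first bin to 16.2% at 1 kb, while state 1 peaks at 25.2% in the second bin.

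**Figure D2:**
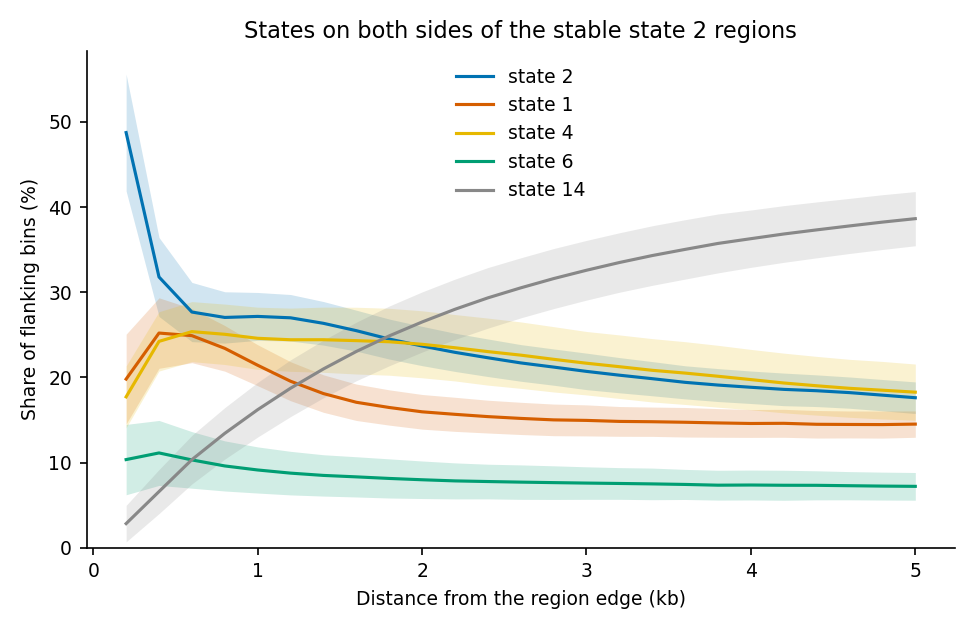
Share (%) of flanking bins in states 1, 2, 4, 6 and 14 against the distance (kb) from the edge of a stable region, both sides pooled; lines are means and bands are SD over 9 strains. Bins of neighbouring regions are kept here. State 2 falls from 48.7% in the first bin, states 1 and 4 hold about equal shares near the edge, and state 14 rises with distance.

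A region often had a different neighbour on each side. Reading outward from each edge to the first bin in another state, 37.5% ± 5.33 of the regions had state 1 on one side and state 4 on the other, the most frequent pair in the mean over strains. The shares of the single sides would give 28.1% if the sides were independent, and the observed share was higher in 9 of 9 strains (difference 9.46 ± 1.54 points). State 6 on both sides was also above the product of its side shares, 7.63% against 4.07%, in 9 of 9 strains. Pairs below the product in 9 of 9 strains were 1 with 1 (10.1% against 13.3%), 1 with 6 (11.7% against 14.2%) and 4 with 6 (9.36% against 14.7%). For 4 with 4, at 13.9% against 15.2%, 8 of 9 strains were below. The products use the same side shares as the observed pairs, so an excess in some pairs must be offset in others. The pairs are therefore not separate results, and their p-values are not independent. The regions were also set by the same 9 strains that were read, so the 9 values of a pair are not independent either. These comparisons were added after the earlier results had been seen; their exact sign-flip permutation p, adjusted over 11 added tests, was 0.0048 for each pair except 4 with 4, where it was 0.013.

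The order of the neighbours followed the nearest gene start. For 22869 regions lying 1 to 50 kb from the nearest listed start, the side toward the start was in state 1 in 39.7% of regions and the side away in 34.8%, a difference of 4.93 ± 0.499 points, positive in 9 of 9 strains. State 4 showed the opposite, 36.1% toward and 40.3% away (-4.16 ± 0.748 points, 0 of 9 strains positive). Both had an adjusted p of 0.0048 by the exact sign-flip permutation test over the same 11 tests. State 6 had 19.2% toward and 19.5% away (adjusted p = 0.176, exact permutation). The same regions, set by all 9 strains, were read in each strain, so the 9 values are not independent.

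The regions lay in genes but away from gene starts, a placement shared with stable state 6. Bodies of protein-coding genes from end to end held 69.3% of region bins, against 40.1% of all autosomal bins. For bins stable in states 1, 3, 4 and 6 this share was 68.4%, 86.5%, 54.5% and 74.7%. Only 0.703% of region bins were within 1 kb of a listed start, against 1.56% of all bins, 17.6% of stable state 1 bins and 70.3% of stable state 3 bins. Stable state 4 and state 6 bins were also rare there, at 1.09% and 0.534%. Within 1 kb of the 3' end of a gene lay 2.33% of region bins, against 1.27% of all bins. Far from genes, beyond 5 kb from any, lay 14.4% against 41.7%. The median distance from a region to the nearest listed start was 32823 bp, close to that of state 4 regions (32711 bp), below that of state 6 (46963 bp) and above those of state 1 (8401 bp) and state 3 (247 bp). Starts were listed for 79.6% of the genes and for none on chromosome 18, so these distances cover 37475 regions.

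The profile around starts gives the same picture at finer scale. At the start bin, 38.1% of genes were stable in state 3, and state 1 peaked on both flanks, at 30.2% of genes 600 bp upstream and 29.8% 800 bp downstream. Stable state 2 was at 0.286% in the start bin and rose on both sides, to 2.56% at 9600 bp downstream and 1.66% at 9200 bp upstream. Nearer in, the sides were reversed: from 1 to 5 kb, a strain's state 2 covered 1.94% of bins downstream and 2.69% upstream. The difference was -0.746 ± 0.171 points, with 0 of 9 strains positive (exact sign-flip permutation test, adjusted p = 0.0048 over the 11 added tests). At 3000 bp, stable state 1 was at 10.4% of genes downstream and 5.43% upstream, and stable state 2 at 0.328% and 0.972%.

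**Figure D3:**
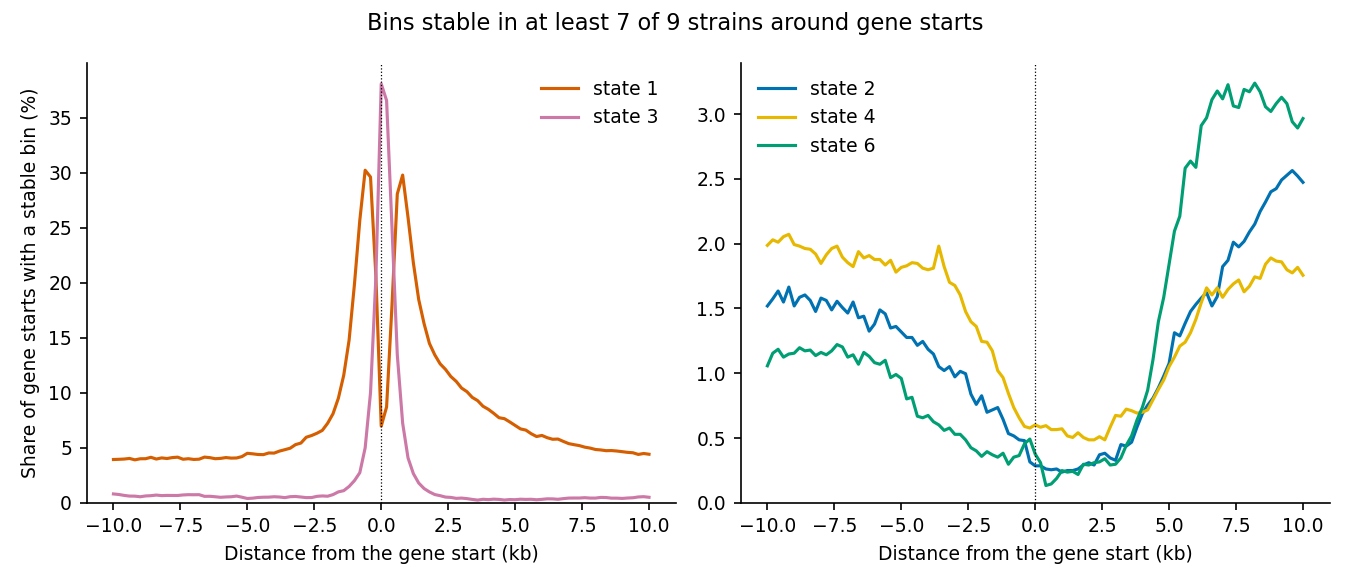
Share (%) of 16457 genes with a bin stable in at least 7 of 9 strains at each distance (kb) from the listed start, positive downstream; states 1 and 3 on the left, and states 2, 4 and 6 on the right with a smaller scale. State 3 peaks at the start (38.1%), state 1 on both flanks, and state 2 stays low over the start and reaches 2.56% at 9600 bp downstream.

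Recurrence of state 2 was also compared by where a bin lay, and no difference passed after adjustment. Held-out bins within 1 kb of a listed start, 612 to 726 per strain, kept state 2 in 81.0% ± 8.49, and bins far from genes in 84.1% ± 8.05. The difference of -3.18 ± 5.29 points was negative in 8 of 9 strains and did not pass (exact sign-flip permutation, p = 0.078, adjusted 0.109). It rested in part on NOD/ShiLtJ, with 71.6% at starts and 86.7% far from genes, and the exception was NZO/HlLtJ, without which it was -3.92 points (p = 0.0078, exact permutation). A narrower window gave -5.09 points (p = 0.012, exact permutation), whereas genes of all kinds gave -0.973 (p = 0.512), both ends of every gene 1.10 (p = 0.535) and 3' ends alone 2.37 (p = 0.289), all by the same exact test. The size and sign of this comparison thus change with its settings. Gene bodies, with 84.9% ± 6.49, differed from far bins by 0.726 ± 4.54 points (adjusted p = 0.752, exact permutation).

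Of 20665 autosomal protein-coding genes, 5602 (27.1%) had at least 1 region bin in the body or within 1 kb of it. The share rose with gene length, from 6.69% of genes under 10 kb and 26.5% of those of 10 to 30 kb to 44.3% of those of 30 to 100 kb and 57.2% of longer genes. A median gene had none, and the 99th percentile of the share of a gene's bins in regions was 23.2%. The 5 longest regions all overlapped protein-coding genes. In the order of length these were Rxra, a nuclear receptor that pairs with many others; Aldh1l1, an enzyme of folate metabolism; Ghr, the growth hormone receptor; Plg, plasminogen; and Mtss1, a membrane and actin scaffold.

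The Rxra region, chr2:27732001-27750000, was 18000 bp long and began 22709 bp downstream of the nearest listed start. State 2 covered all of it in 5 strains, 97.8% in PWK/PhJ and WSB/EiJ, 95.6% in NZO/HlLtJ and 88.9% in 129S1/SvImJ. The Aldh1l1 region, chr6:90588201-90604000, ran past the 3' end of the gene and also overlapped Gm15756, a predicted gene. It varied more: state 2 covered 58.2% of it in A/J and 79.7% in CAST/EiJ, against 96.2% to 100% in the other 7 strains. In Ghr (chr15:3433401-3448600) every strain was between 92.1% and 100%, and in Plg (chr17:12401401-12416200) between 86.5% in C57BL/6J and 100%. In Mtss1 (chr15:58975201-58985600) the lowest were 129S1/SvImJ with 84.6% and NZO/HlLtJ with 86.5%, and A/J and WSB/EiJ were at 100%.

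The genes with the most region bins were long genes with many separate regions. Nfia, a transcription factor of the nuclear factor I family, had 81.6 kb in 67 regions. Zbtb20, a zinc finger repressor of fetal liver genes, had 73.8 kb in 80 regions, and Zmiz1, a transcriptional coregulator, 72.2 kb in 29. Slc22a23, a transporter family member, had 69.0 kb in 40 regions, Vps13d, a lipid transfer protein, 65.6 kb in 52, and Itpr1, a calcium release channel, 63.6 kb in 60. Thrb, the thyroid hormone receptor beta, had 59.6 kb in 60 regions, Prkag2, a subunit of the energy sensor AMPK, 58.8 kb in 41, Lpp, a focal adhesion protein, 58.2 kb in 69, and Rbfox2, a splicing factor, 57.4 kb in 52. As shares of the gene with 1 kb beyond each end, these ranged from 9.68% in Lpp to 41.0% in Slc22a23.

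The largest shares belonged to genes shorter than those just named, from 2685 bp (Saa1) to 86875 bp (Rxra). Many of them were liver enzymes and plasma proteins. Stable state 2 covered 75% of Orm2, 71.9% of Aldh1l1, 53.7% of Plg and 50% of Saa1, an acute-phase protein. It covered 49.5% of Amdhd1, of histidine breakdown, and 49.0% of Ass1, of the urea cycle. Gm33049 and Rxra had 49.0% each, and Prox1, a hepatocyte transcription factor, had 47.6%. Orm2 and Saa1 have close copies next to them, and how reads were shared among copies is not given in the sources used here.

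Strains differed over these 9 genes, and no strain was lowest throughout. For Orm2, state 2 covered 42.9% in CAST/EiJ and 50% in NOD/ShiLtJ, against 75% to 100% in the other 7. For Aldh1l1 the low strains were CAST/EiJ with 45.1% and A/J with 49.0%, against 73.5% to 80.2% elsewhere. Ass1 ran from 42.2% in DBA/2J to 71.5% in PWK/PhJ, and Saa1 from 41.7% in WSB/EiJ to 83.3% in DBA/2J. Plg was the most even by its range, from 51.9% to 61.2%, with Amdhd1 close to it, from 46.3% to 56.8%.

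**Figure D4:**
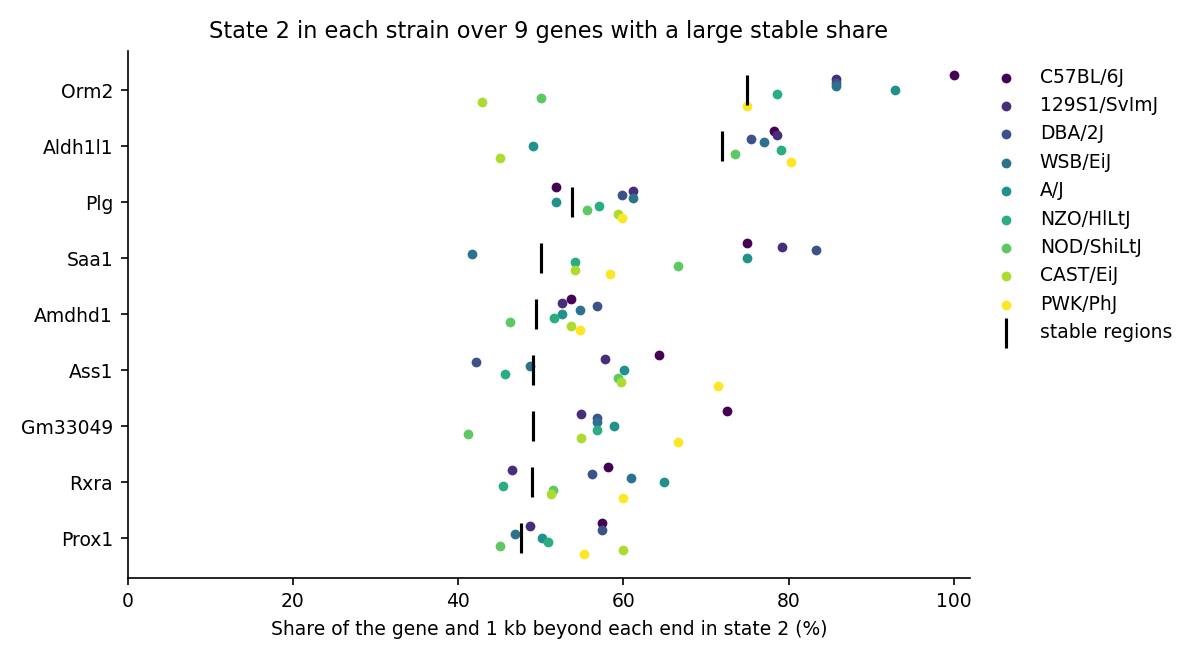
Share (%) of each of 9 genes among those with the largest stable shares, with 1 kb beyond each end, that was in state 2 in each strain (points, coloured by strain in the order of the held-out share) and in the stable regions (black tick). Orm2 and Aldh1l1 show 2 strains well below the other 7, and Plg has the narrowest range.

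Genes grouped by function showed where the stable regions fell within the liver programme. Read against 27.1% of all genes with at least 1 region bin, and against the background of their length, the 5 lists of genes with known roles in hepatocytes had 70 of 100 genes with a region, with a median share of 6.76%. The 3 lists of markers of other liver cells had 7 of 29. Only the autosomal members are counted, the lists were drawn up with earlier results known, and they differ in gene length, so the counts are descriptions.

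Among genes of glucose, amino acid and urea metabolism, 17 of 20 had a region, with a median share of 7.45%. Of the 12 genes of this list that were 10 to 30 kb long, 11 had a region, where the background for that length is 26.5%. Besides Ass1, large shares were in Hal, which starts histidine breakdown, with 41.7%, and Cps1, the entry enzyme of the urea cycle, with 23.6%. Cps1 ranged from 19.3% state 2 in A/J to 47.6% in NZO/HlLtJ. The genes without a region included Pck1, a key enzyme of glucose production, and Tat, of tyrosine breakdown. Hpd, the next enzyme of tyrosine breakdown and picked out after its values were seen, had 12.3% in regions and state 2 in every strain except 129S1/SvImJ, which had 0%.

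Genes of lipid, bile acid and xenobiotic metabolism had a region in 15 of 20 cases, with a median share of 10.5%. Of the 12 genes of this list that were 10 to 30 kb long, 10 had a region, where the background is 26.5%. Of the 4 under 10 kb, 1 had one, where the background is 6.69%. Large shares were in Cyp7a1, the rate-limiting enzyme of bile acid synthesis, with 26.2%, and Cpt1a, of mitochondrial fatty acid uptake, with 23.2%. Over Cyp7a1, state 2 covered 3.28% in NOD/ShiLtJ and 13.1% in A/J, and 27.9% to 54.1% in the other 7 strains. The 5 genes with none were Cyp8b1, Slc10a1, Cyp2e1, Cyp1a2 and Ugt2b1. Scd1, a fatty acid desaturase outside the 4 largest shares and picked out after its values were seen, had 16.9% in a single region. Its state 2 share ran from 10.4% in A/J and 14.3% in NOD/ShiLtJ to 66.2% in PWK/PhJ.

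Hepatocyte transcription factors had a region in 12 of 20 genes, with a median share of 7.85%. Their pooled share was the largest of the 10 lists, 23.4% of all their bins, while stable state 1 covered 29.9%. Behind Rxra and Prox1 came Hnf4a, a master regulator of hepatocyte genes, with 32.3% in 9 regions, and Nr1h4, the bile acid receptor, with 26.2% in 18 regions. Hnf4a ranged from 32.8% state 2 in CAST/EiJ to 47.2% in PWK/PhJ, and Nr1h4 from 23.5% in NOD/ShiLtJ to 57.8% in PWK/PhJ. The 8 genes with none were Foxa1, Foxa2, Foxa3, Cebpa, Cebpb, Nr1i3, Nr0b2 and Nr2f2. Of the 6 factors under 10 kb none had a region, where the background for that length is 6.69%, and of the 8 factors of 30 kb or more all 8 had one, where the background is 44.3% up to 100 kb and 57.2% above.

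Genes of hormone signalling and the clock had a region in 16 of 20 cases, with a median share of 7.79%. These genes are long, with a median of 50.9 kb. All 9 of 30 to 100 kb and all 4 longer ones had a region, where the background is 44.3% and 57.2%. Of the 4 genes of 10 to 30 kb, 2 had one, where the background is 26.5%. The largest shares were in Igf1, the growth factor that growth hormone induces in liver, with 30.1%, Irs1, an insulin receptor substrate, with 27.7%, Gcgr, the glucagon receptor, with 20%, and Ghr with 19.8%. Igf1 was at 22.5% state 2 in NOD/ShiLtJ and 23.2% in NZO/HlLtJ, and between 33.6% and 58.5% in the other 7 strains. Ghr ranged from 22.1% in A/J to 37.8% in 129S1/SvImJ. Igfbp1, Fgfr4, Per1 and Nr1d1 had no region.

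Secreted plasma proteins split into those with and without a region, 10 of 20 each, with a median share of 0.379%. Of the 10 genes under 10 kb, 3 had a region, where the background is 6.69%. Of the 8 genes of 10 to 30 kb, 5 had one, where the background is 26.5%. Plg led, followed by Itih4, an inhibitor heavy chain, with 25%, Trf, transferrin, with 22.9%, and complement C3 with 18.2%. C3 varied from 7.58% state 2 in NZO/HlLtJ to 61.4% in PWK/PhJ. Among the genes with none were several of the most abundant products of the liver: Alb, Ttr, Apoa1, Apoa2, Apoc3, Apoh, Hp, Fga, Fgb and Fgg. Over this list, stable state 1 covered 36.0% of the bins and stable state 2 covered 13.1%, against 3.66% and 1.96% over all genes.

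Of 20 ubiquitously expressed genes, 3 had a region, Gapdh (8.82%), Tubb5 (6.06%) and Eef2 (5.00%), and 17 had none, among them Actb and Tbp. These are short genes, with a median of 5.65 kb, and the 3 were among 13 genes under 10 kb, where the background is 6.69%. None of the 7 longer genes of this list had a region. Of 20 developmental regulators, most of them silent in adult liver, 3 had a region: Gata4 with 7.73%, Tbx5 with 1.10% and Pax2 with 0.853%. These were 3 of the 5 genes of 30 to 100 kb in the list, where the background is 44.3%. The remaining 17, such as Pax6 and Sox2, had none, and 12 of them were under 10 kb. The 5 hepatocyte lists together held 560.4 kb of region bins, a small part of the regions that lie in genes.

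Markers of other liver cells were checked because the labels name hepatocytes. The defining hepatocyte genes Hnf4a, Cps1 and Ahsg had region bins, the last only 1, whereas Alb, Ttr and Apoa1 had none. Endothelial markers had a region in 6 of 10 genes, a median share of 1.47% and a pooled share of 2.78%, near the 1.96% of all genes. These genes are long, with a median of 44.6 kb. Of the 4 genes of 30000 to 100000 bp, 2 had a region, where the background is 44.3%. Of the 3 longer genes, 2 had one, where the background is 57.2%. Of the 3 genes of 10000 to 30000 bp, 2 had one, where the background is 26.5%. The largest shares were in Lyve1 with 25%, Pecam1 with 6.01% and Stab2 with 4.96%, and Kdr, Clec4g, Cdh5 and Tek had none. Lyve1 was in state 2 over 27.8% to 45.8% of its bins in each of the 9 strains. Of 9 autosomal Kupffer cell and leukocyte markers, Csf1r alone had regions, with 9.35%, and Clec4f, Adgre1, Cd68, Ptprc, Lyz2, Cd3e, Cd79a and Itgam had none. None of 10 stellate cell and bile duct markers had a region. The part of other cells in the state calls was not tested.

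**Figure D5:**
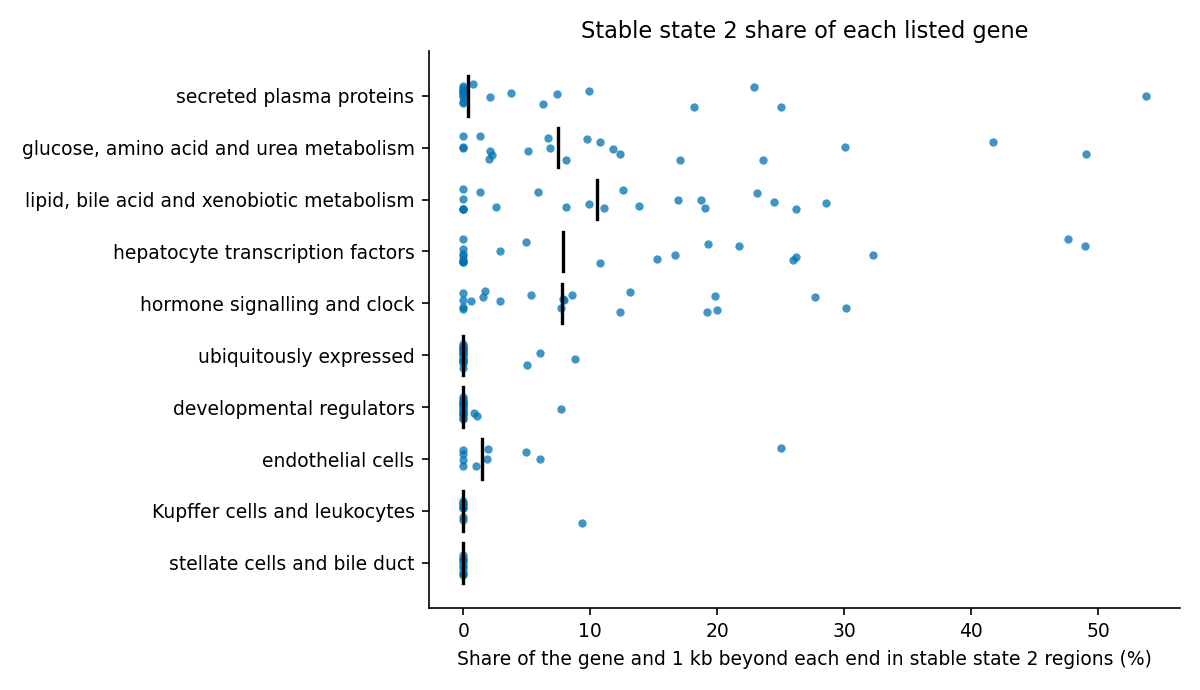
Share (%) of each listed gene, with 1 kb beyond each end, that lay in stable state 2 regions; each point is 1 gene, rows are the 10 lists and black bars are medians, with points shifted up or down only to keep them apart. Medians are 7.45% to 10.5% for the metabolic, factor and hormone lists, 0.379% for plasma proteins, 1.47% for endothelial markers and 0 for the other 4 lists.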

How the data were processed

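Hepatocyte ChIP-seq of 4 histone marks and inputs was used through the deposited segmentations, 1 per strain. The values the authors deposited are not a count, signal or score: each 200-bp interval carries a state number, a category, per the file headers and the files. The submitters' processing notes name mm10, FastQC 0.11.5 and MACS 1.4.2, with no role. The segmentation tool, the marks of each state and the read depth are not given in the sources used here, so no counting error is given.

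Groups were the strains in the labels. Bins in state 2 in at least 7 of 9 strains were merged into regions. Recurrence was measured in held-out strains, and differences were tested by exact two-sided sign-flip permutation over 9 strains (512 patterns) or exact permutation over strains, with Benjamini-Hochberg adjustment over 7 planned and 11 added tests. Code was tested on simulated segmentations. Gene positions, starts and sequences are RefSeq's, GRCm38.p6. A gene counts as having a region with 1 region bin in its body or within 1 kb. The 3 mice of a strain share 1 segmentation, so no spread within a strain is known.

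The members and lists were chosen with earlier results of these data known. Named genes are the 10 with the most region bins, the 10 of 2 kb or more with the largest share, those at the 5 longest regions, and in each list the 2 to 4 with the largest shares and those with none. Some genes that this rule names are not reported here. Alternatives changed the strain threshold, region length, merging, matching, windows, gene kinds and strains included. Python 3.11.15, numpy 2.4.6 and pandas 2.3.3 were used.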

Additional observations from a re-analysis of the deposited data

How the results depend on the processing

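Of 184 values recomputed with 1 setting changed, 162 kept their direction and their side of the threshold or stayed near the reported value. Counting state 2 within 1 bin as a match raised the held-out share to 91.7% and turned the difference from state 6 to 0.254 points. That difference ran from -1.18 to 0.805 points when strains were left out, and was positive without A/J (0.687), NOD/ShiLtJ (0.805) or NZO/HlLtJ (0.437). The difference between starts and bins far from genes was -3.48 points with 6 of 8 strains (p = 0.027, exact permutation), -5.09 with narrower windows, 1.10 with both ends of every gene and 2.37 with 3' ends, the last 2 added after seeing the data. It ran from -3.92 to -1.69 with strains left out, lowest without NZO/HlLtJ. Gene bodies against far bins ran from -0.017, without CAST/EiJ, to 1.94. The flank excess of state 1 over state 14 was -2.28 points with 10 bins. With all 9 strains required, there were 17706 regions of median 400 bp, 70.2% of their bins inside genes and 3.98% within 1 kb of a gene end, at 3387 genes. With 8 strains the median was 400 bp and 69.9% lay inside genes, with 6 strains 68.9% and 4.04%, and with regions of 2 or more bins 70.1%, against 69.3% and 3.85% as reported. Leaving out strains moved the held-out share between 83.5% and 85.7%, the difference from state 1 between -10.1 and -8.10 points, middle against edge between 7.83 and 8.61, state 1 against 6 in the flank between 10.6 and 12.5, state 1 against 14 between 9.65 and 11.9, and wild-derived against laboratory strains between -10.5 and -4.32, with no change of call. For the added comparisons the ranges were 4.80 to 5.01 points for state 1 toward the start, 9.17 to 9.85 for the pair of states 1 and 4, and -0.790 to -0.715 for downstream against upstream. No paired analysis was possible because, at the level of mice, each segmentation pools the animals of its strain and carries no replicate number; the sign-flip comparisons pair values within strains. The depth behind each segmentation is unknown.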
